A study of Mus musculus with 10 samples.

Results

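Neurotransmitter receptor subunit genes were examined in motor neuron lineage cells sorted from e10.5 mouse spinal cord, in controls and in embryos that lacked Oc1 and Oc2 (Onecut1 and Onecut2) in these cells. The set was defined by name alone: every protein-coding gene of the GENCODE M21 annotation whose symbol marks it as a subunit of an AMPA (Gria), kainate (Grik), NMDA (Grin), metabotropic glutamate (Grm), GABA-A (Gabra, Gabrb, Gabrg), GABA-B (Gabbr), glycine (Glra, Glrb), nicotinic acetylcholine (Chrna, Chrnb, Chrnd, Chrne, Chrng) or muscarinic acetylcholine (Chrm) receptor. It held 64 of the 48974 genes to which exon counts were given, namely 16 nicotinic, 5 muscarinic, 4 AMPA, 5 kainate, 7 NMDA, 8 metabotropic glutamate, 12 GABA-A, 2 GABA-B and 5 glycine receptor genes.

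The cells came from 5 control and 5 conditional double knock-out (cdKO) samples, all at e10.5 by their titles. Every embryo carried Olig2-Cre+/- and Rosa26R-YFP+/-, so that cells with a history of Olig2 expression fluoresced and were collected by FACS. Controls were Oc1+/Flox Oc2+/Flox and thus lost 1 copy of each gene in these cells, and cdKO embryos were Oc1-/Flox Oc2-/Flox. Cre driven by Olig2 also marks V3 interneurons next to the motor neurons, and in bulk RNA fewer cells of a type cannot be told apart from less RNA per cell.

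Transmitter receptors of the ligand-gated kind are assemblies of 5 subunits (nicotinic, GABA-A and glycine receptors) or 4 subunits (AMPA, kainate and NMDA receptors) around a pore, whereas muscarinic, metabotropic glutamate and GABA-B receptors act through G proteins. Young motor neurons carry acetylcholine, GABA, glycine and glutamate receptors before they receive mature synapses, and in the early spinal cord GABA and glycine depolarize neurons. Acetylcholine receptors of the muscle side of the neuromuscular junction use a separate set of nicotinic subunits (Chrna1, Chrnb1, Chrnd, Chrng and Chrne).

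The deposited counts summed to 63932395 to 107709534 per library. Motor neuron transcripts were present in all 10 libraries, with Lhx3 at 33.5 to 189 CPM (counts scaled to library size by the TMM method) and Mnx1 at 29.9 to 72.6 CPM. Onecut1, summed over the whole gene, stood at 5.84 ± 2.82 CPM in controls and 2.71 ± 1.26 CPM in cdKO samples (SD, n = 5 each), with an overlap of the groups. Onecut2 stood at 4.803 ± 3.34 CPM and 6.91 ± 7.14 CPM, so its whole-gene sum did not separate the groups. Both sums include exon bins that may lie outside the deleted part. A pair of libraries stood apart. The 38 members that passed the filter on low counts (the tested members) held 711 exon bins not shared with another gene. On these bins, control 5 had counts on 43.0% and cdKO 5 on 45.1%, against 61.7% to 77.8% in the other 8 libraries. Over all assigned bins, control 5 and cdKO 5 had counts on 57.2% and 46.5%, against 59.8% to 63.7%. Control 5 gave the lowest CPM of the 10 libraries for 19 of 38 tested members. Its summed pan-neuronal markers (Tubb3, Stmn2, Elavl3, Elavl4 and Dcx) reached 793 CPM, where the other controls had 1445 to 2505 CPM and the cdKO samples 1134 to 3872 CPM. The highest of these sums was that of cdKO 5 and the lowest that of control 5, so the pair was not alike in this respect. The markers did not move together. Tubb3, Stmn2 and Dcx were lower in control 5 than in any other control. Elavl3, at 40.4 CPM, was higher there than in the other controls (5.83 to 23.6 CPM), and Elavl4, at 485 CPM, lay among them (173 to 565 CPM). The part of this difference in the receptor values was not tested, and fold changes are also given without both libraries where these moved them by more than 1.5 times.

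The protein-coding transcripts of all 64 members in GENCODE M21 were searched for neighbouring coding exons of equal length that replace each other, and 4 genes, the AMPA receptor genes, held such a pair. The search depends on the annotated transcripts and did not find the alternative exons known for Glra2. The pairs found are the flip and flop exons, which code for part of the ligand-binding domain and affect how fast the channel desensitizes. Each of these exons has a count of its own, although few counts fell on them, and the sequences of Gria1 and Gria2 are shown. They were taken from GENCODE M21 transcripts on GRCm38 and are printed 5′ to 3′ in the sense of the gene, with capitals at the bases that differ between the flip and the flop exon of the same gene. Each exon is 115 bases long, and 36 of the 115 bases differ within each pair.
Gria1 flop, chr11:57309769-57309883, plus strand: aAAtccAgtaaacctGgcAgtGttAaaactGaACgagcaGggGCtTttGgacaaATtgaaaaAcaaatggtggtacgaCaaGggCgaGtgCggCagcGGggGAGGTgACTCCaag
Gria1 flip, chr11:57310608-57310722, plus strand: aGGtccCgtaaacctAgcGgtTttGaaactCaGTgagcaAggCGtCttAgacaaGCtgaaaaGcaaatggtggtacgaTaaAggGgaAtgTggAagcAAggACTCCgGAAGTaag
Gria2 flop, chr3:80691320-80691434, minus strand: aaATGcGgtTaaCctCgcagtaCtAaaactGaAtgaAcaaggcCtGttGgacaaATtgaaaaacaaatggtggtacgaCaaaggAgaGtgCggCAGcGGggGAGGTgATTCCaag
Gria2 flip, chr3:80690404-80690518, minus strand: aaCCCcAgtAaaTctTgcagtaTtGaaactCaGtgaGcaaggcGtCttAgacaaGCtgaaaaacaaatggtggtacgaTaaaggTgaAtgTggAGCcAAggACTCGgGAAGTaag
Over all 10 libraries, Gria1 had 19 counts on flip and 2 on flop, and Gria2 had 39 on flip and 26 on flop. Gria3 had 12 flip counts and 0 flop counts, and Gria4 had 5 and 3. A minimum of 10 counts on a pair was met only by Gria2, in control 1 (9 flip and 4 flop) and in cdKO 4 (13 flip and 7 flop). No comparison of exon choice between the groups was possible at this depth.

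The 64 genes covered a wide range of levels. To compare genes, the CPM of each was divided by its effective length in kilobases (the bin lengths, each extended by the read length of 150 bases less 1, since a read adds to the count of each bin it touches). On this per-length scale 9 members exceeded 1 CPM per kb and 26 exceeded 0.1 CPM per kb. Nicotinic subunits made up 50.7% of the summed level over all libraries and were the highest class in 10 of 10 libraries, with a share between 41.4% and 63.2%. Metabotropic glutamate receptors followed with 13.5%, glycine receptors with 9.66% and GABA-A receptors with 9.57%. Kainate (6.05%), GABA-B (4.11%), NMDA (3.21%), AMPA (2.89%) and muscarinic (0.289%) receptor genes contributed the rest. Such shares of 1 sum are not independent of each other. The sums also include bins shared with other genes, on which most counts of Grin3b lay. Grin3b made up 21.4% to 61.5% of the NMDA sum in controls and 9.75% to 71.7% in cdKO samples.

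**Figure D1:**
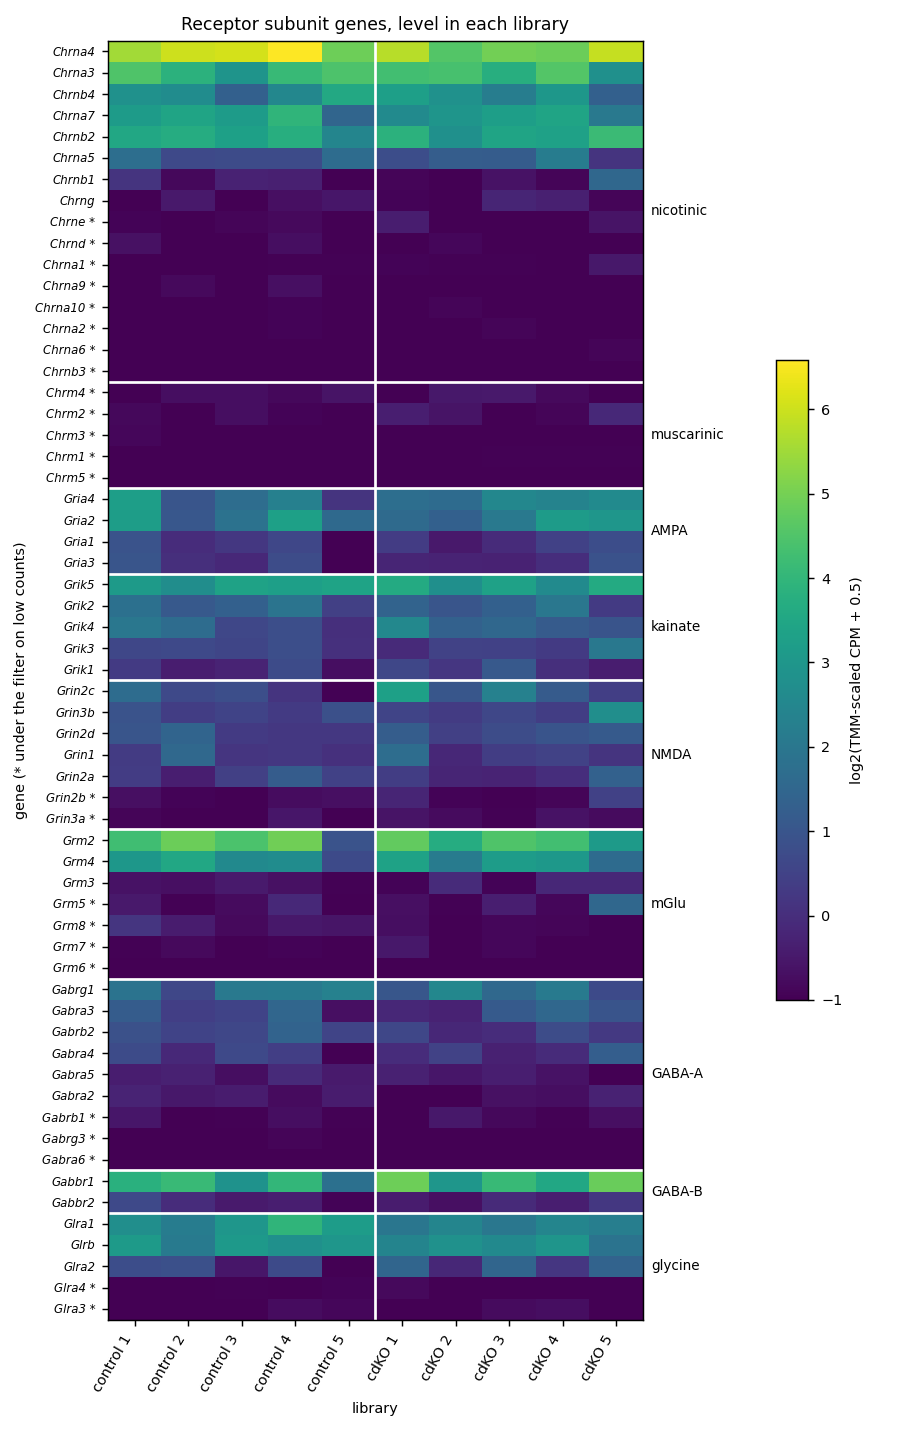
Heat map of log2(TMM-scaled CPM + 0.5) for 60 of the receptor subunit genes (rows, grouped by receptor class and ordered within a class by level per length) in the 5 control and 5 cdKO libraries (columns). Asterisks mark the 24 genes shown that were under the filter on low counts, and Chrna4 is the brightest row.

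Chrna4, the alpha4 nicotinic subunit, had the highest level per length of all members in 9 of 10 libraries, with a mean of 6.60 CPM per kb. In cdKO 2 it was exceeded by Chrna3, the alpha3 subunit. Among the next in order were Grm2 (2.64 CPM per kb), Chrna3 (2.53), Glra1 (1.48), Chrnb4 (1.32), Chrna7 (1.28), Chrnb2 (1.12), Gabbr1 (1.04) and Grik5 (0.882). From Grm2 downwards, these genes overlapped with their neighbours in their ranges over libraries. Of the 64 members, 4 had no count in any library: Chrnb3, Chrm5, Grm6 and Gabra6. A count of 0 allows up to 3 counts, which corresponds to 0.0288 to 0.0591 CPM depending on the library. Chrm1, Chrna2, Chrna6, Chrna10 and Gabrg3 also never exceeded 3 counts in a library.

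**Figure D2:**
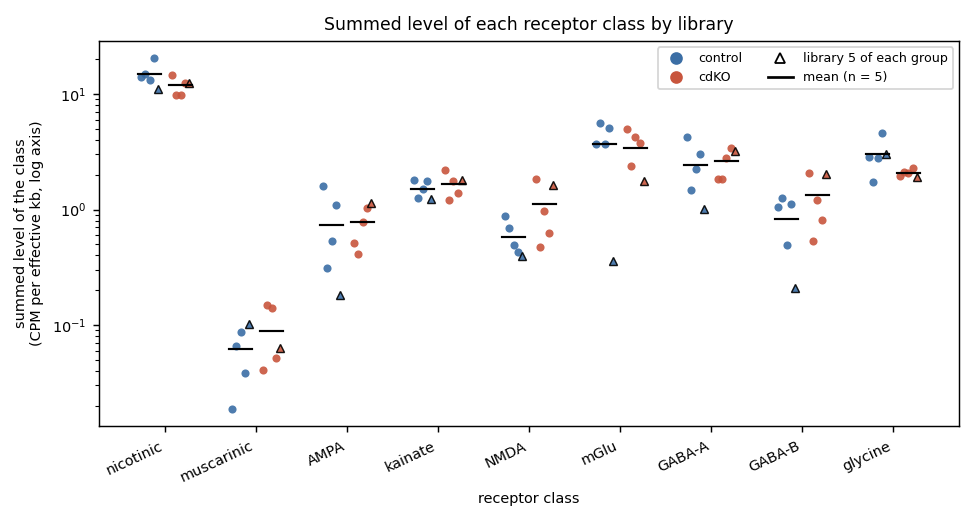
Summed level per length (CPM per effective kb, log axis) of each receptor class in each library, with control in blue, cdKO in red, triangles for library 5 of each group and black lines for the means of 5 libraries. The nicotinic class lies above all others in every library, and control 5 is the lowest point of the mGlu, GABA-A, GABA-B, AMPA and NMDA classes. The sums include bins shared with other genes.

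To learn whether loss of Oc1 and Oc2 altered receptor expression, control and cdKO samples were compared with edgeR's quasi-likelihood test across all genes, with Benjamini-Hochberg adjustment. No receptor subunit gene passed an adjusted p of 0.05. Of the 64 members, 38 passed the filter on low counts, and 22 of these had higher and 16 lower fitted values in cdKO. The smallest adjusted p among them was 0.939, and the share of all 17838 tested genes that passed was 0%. At an unadjusted p under 0.05, 0 of the 38 members were higher in cdKO, where 4.18% of all genes were. At the same threshold 1 member was lower (Glra1), where 0.818% of all genes were. No tested member separated the groups without overlap, with all cdKO values lower in 0.224% and higher in 0.179% of all genes. The median log2 fold change of the 38 members was 0.072, and that of all genes -0.018. With both sparse libraries left out, the median of the members was -0.17 and that of all genes 0.0044. Then 1 of 38 members had an unadjusted p under 0.05 and a higher value (Grin2c; 0.894% of all genes), and 4 had a lower value (Chrna4, Glra1, Gria3 and Chrnb1; 1.52% of all genes), again with no adjusted p under 0.05. Both libraries were set apart after the data were seen, partly by low values of the members themselves. Leaving them out is therefore not independent of the members' values and gives no separate support for lower values in cdKO.

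The standard errors of the log2 fold changes ran from 0.31 to 1.33, with a median of 0.57. The labels do not say that the samples came from separate embryos, so the p-values measure the spread between these samples. A test that misses the threshold does not show that the groups were alike.

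**Figure D3:**
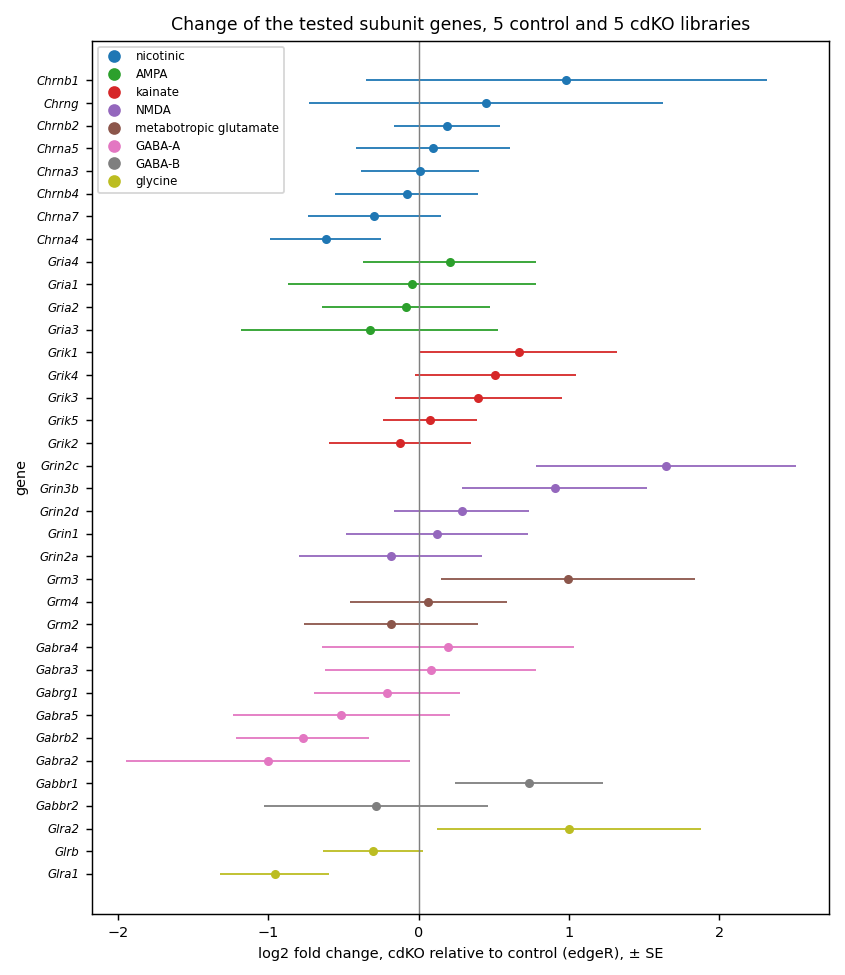
Fitted log2 fold change of 36 of the tested members, cdKO relative to control, with bars of ± SE and colours for receptor classes. Only Glra1 lies more than 2 SE from 0, and Grin2c has the highest value at 1.64.

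Nicotinic receptors of neurons combine alpha and beta subunits, of which alpha4 with beta2 and alpha3 with beta4 are the common pairs. Chrna4 stood at 45.7, 63.3, 67.9, 95.2 and 29.8 CPM in controls 1 to 5 and 53.6, 22.9, 30.7, 29.1 and 60.4 CPM in cdKO samples 1 to 5. Controls 2, 3 and 4 lay above every cdKO sample, whereas control 5 lay within the cdKO range. The means were 60.4 ± 24.6 CPM in controls and 39.3 ± 16.5 CPM in cdKO samples (SD, n = 5 each), and the log2 fold change was -0.62 ± 0.37 (SE) with an unadjusted p of 0.116 and an adjusted p of 0.960 in edgeR's test. Without both sparse libraries it was -1.005 ± 0.31 (SE), with an unadjusted p of 0.00839 and an adjusted p of 0.9998.

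Chrna5, Chrna3 and Chrnb4 lie side by side on chromosome 9 of GRCm38, at chr9:54980880-55007779, chr9:55010111-55026562 and chr9:55028154-55048779, and code for subunits that assemble together in autonomic ganglia. Chrna3 measured 22.2, 14.1, 7.05, 16.7 and 21.4 CPM in controls 1 to 5 and 19.2, 20.5, 12.8, 23.0 and 6.48 CPM in cdKO samples 1 to 5. For Chrnb4, the values were 6.60, 5.91, 2.01, 5.22 and 11.5 CPM in controls 1 to 5 and 9.21, 6.60, 4.13, 7.57 and 2.03 CPM in cdKO samples 1 to 5. Control 3 and cdKO 5 were the lowest libraries of their groups for both genes, and the groups overlapped throughout. The log2 fold changes were 0.011 ± 0.39 (SE) for Chrna3 and -0.078 ± 0.48 (SE) for Chrnb4, or 0.32 ± 0.34 (SE) and 0.47 ± 0.38 (SE) without both sparse libraries. Control 5, the lowest control for Chrna4, was the highest of all libraries for Chrnb4. Chrna5 ran from 1.10 to 2.86 CPM in controls and from 0.610 to 4.08 CPM in cdKO samples.

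Chrna7, the alpha7 subunit that forms receptors on its own, ran from 2.29 to 14.9 CPM in controls and from 3.66 to 10.3 CPM in cdKO samples, with a log2 fold change of -0.29 ± 0.44 (SE). Chrnb2, the beta2 partner of alpha4, ran from 4.92 to 12.9 CPM and from 6.47 to 17.6 CPM, with 0.19 ± 0.35 (SE), or -0.19 ± 0.26 (SE) without both sparse libraries. However, 71.3% of the Chrnb2 counts fell on 2 exon bins that overlap Adar on the opposite strand, and no step that marks strand is named for these libraries, so reads of both genes cannot be told apart there. On the 7 bins of Chrnb2 alone, controls 1 to 4 had 263 to 431 counts and cdKO samples 1 to 4 had 174 to 388. Control 5 had 16 counts and cdKO 5 had 9 on these bins. The Chrnb2 sum of cdKO 5, the highest of all libraries, therefore lay almost wholly on the bins shared with Adar. Chrna4 has no shared bin, yet cdKO 5 had 0 counts on its bins 12 and 13 from the 5′ end, where the other 9 libraries had 23 to 354 counts.

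The nicotinic subunits of muscle were at low levels. Chrnb1 had 0.602, 0.0575, 0.318, 0.298 and 0 CPM in controls 1 to 5 and 0.0381, 0, 0.147, 0.0358 and 2.36 CPM in cdKO samples 1 to 5. Its cdKO mean rested on cdKO 5, and the log2 fold change of 0.98 ± 1.33 (SE) turned to -2.52 ± 0.93 (SE, unadjusted p of 0.0216, adjusted p of 0.9998) without both sparse libraries. Chrng did not exceed 0.356 CPM in any library and gave 0.45 ± 1.18 (SE), or 0.97 ± 1.33 (SE) without both sparse libraries. Chrna1, Chrnd and Chrne did not pass the filter and had at most 0.197, 0.1305 and 0.267 CPM. Skeletal muscle markers (8 genes, all with counts) summed to 1.92 to 8.70 CPM in controls and 4.72 to 8.55 CPM in cdKO samples, and their part in these traces was not tested. The 5 other nicotinic genes under the filter (Chrna2, Chrna6, Chrna9, Chrna10 and Chrnb3) had at most 0.122 CPM.

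**Figure D4:**
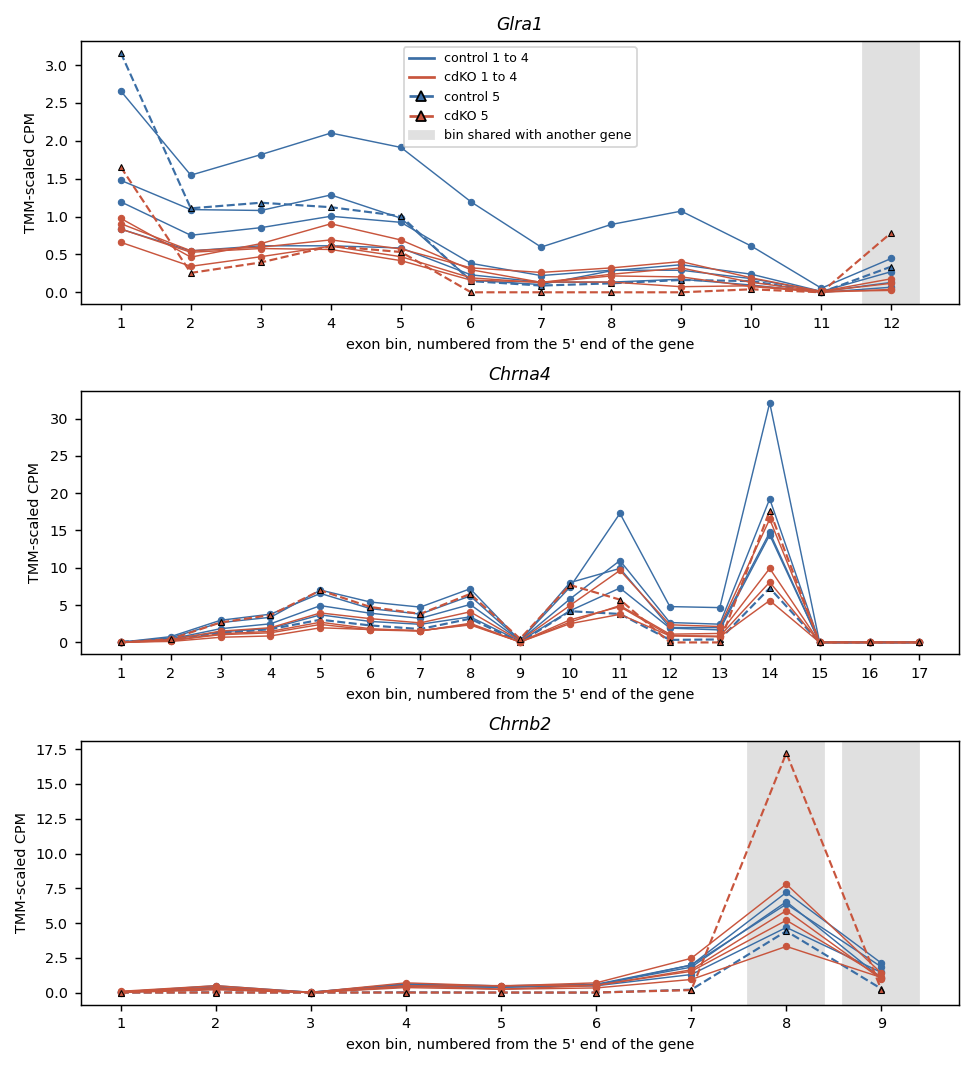
TMM-scaled CPM on each exon bin, numbered from the 5′ end of the gene, for Glra1, Chrna4 and Chrnb2, with 1 line per library (control blue, cdKO red, dashed with triangles for library 5 of each group) and grey shading for bins shared with another gene. The Chrnb2 lines of both dashed libraries stay near 0 until the shaded bins, where cdKO 5 reaches 17.2 CPM.

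Muscarinic receptors were close to the counting limit, and none of the 5 genes passed the filter. The level of Chrm4 was 0, 0.105, 0.114, 0.0542 and 0.163 CPM in controls 1 to 5 and 0, 0.202, 0.221, 0.0715 and 0 CPM in cdKO samples 1 to 5. Chrm2 stood at 0.0602, 0, 0.102, 0.0271 and 0 CPM in controls 1 to 5 and 0.279, 0.155, 0, 0.0358 and 0.414 CPM in cdKO samples 1 to 5. Both were at 0 in some libraries of each group. Chrm3 had 5 counts, all in control 1, Chrm1 had 4 counts in all and Chrm5 had none. Chrm2, the M2 receptor found at cholinergic synapses on mature motor neurons, reached at most 22 counts in a library of this age.

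Glra1, the single member with an unadjusted p under 0.05, is a glycine receptor gene. It codes for the alpha1 subunit, and Glrb for the beta subunit that anchors the receptor at synapses. Glra1 measured 6.23, 4.03, 7.34, 14.9 and 8.59 CPM in controls 1 to 5 and 3.40, 4.93, 3.55, 5.01 and 4.27 CPM in cdKO samples 1 to 5. Of the controls, 4 lay above all 5 cdKO samples, and control 2 lay among them. The means were 8.22 ± 4.10 CPM in controls and 4.23 ± 0.748 CPM in cdKO samples (SD, n = 5 each). The log2 fold change was -0.96 ± 0.36 (SE) with an unadjusted p of 0.0198 and an adjusted p of 0.939 in edgeR's test, and the exact two-sided permutation p of the single gene was 0.0317, where 0.00794 is the smallest that 5 against 5 samples allow. Without both sparse libraries the value was -0.96 ± 0.38 (SE), and without control 4, the highest control, it was -0.64 with an unadjusted p of 0.0783.

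Most Glra1 counts lay in the first 5 of its 12 exon bins from the 5′ end, a split chosen after the values were seen. On these 5 bins the CPM was 6.29 ± 2.64 in controls and 3.18 ± 0.446 in cdKO samples (SD, n = 5 each), a ratio of 0.506 with an exact permutation p of 0.0317. On the 6 later bins not shared with another gene the CPM was 1.68 ± 1.56 and 0.820 ± 0.556, a ratio of 0.489 with an exact permutation p of 0.294. The ratios were similar in size at both ends, and only the 5′ part passed an unadjusted 0.05. The 7 motor neuron markers (Isl1, Isl2, Mnx1, Lhx3, Slc18a3, Chat and Prph) summed to 519 to 724 CPM in controls and 371 to 874 CPM in cdKO samples. Of these, 3 had higher and 4 lower fitted values in cdKO, with a median log2 fold change of -0.0090. Isl1 alone had an unadjusted p under 0.05, with a log2 fold change of -0.83 ± 0.31 (SE), an unadjusted p of 0.0180 and an adjusted p of 0.939 in edgeR's test. The part of these markers in the Glra1 values was not tested.

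For Glrb, the values were 8.27, 3.80, 7.97, 6.47 and 7.46 CPM in controls 1 to 5 and 4.81, 6.57, 5.58, 7.30 and 3.23 CPM in cdKO samples 1 to 5. The groups overlapped, with cdKO 5 lowest, and the log2 fold change was -0.30 ± 0.33 (SE), or -0.14 ± 0.29 (SE) without both sparse libraries. Glra2 had 1.24, 1.30, 0.193, 1.11 and 0 CPM in controls 1 to 5 and 2.26, 0.393, 2.30, 0.644 and 2.166 CPM in cdKO samples 1 to 5. Glra2, the alpha2 subunit typical of embryonic neurons, varied over a wide range in both groups and gave 1.003 ± 0.88 (SE), or 0.53 ± 0.67 (SE) without both sparse libraries. By level per length, alpha1 (1.48 CPM per kb) stood above beta (0.789) and alpha2 (0.259). Glra3 and Glra4 did not pass the filter and had at most 9 and 6 counts in a library.

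**Figure D5:**
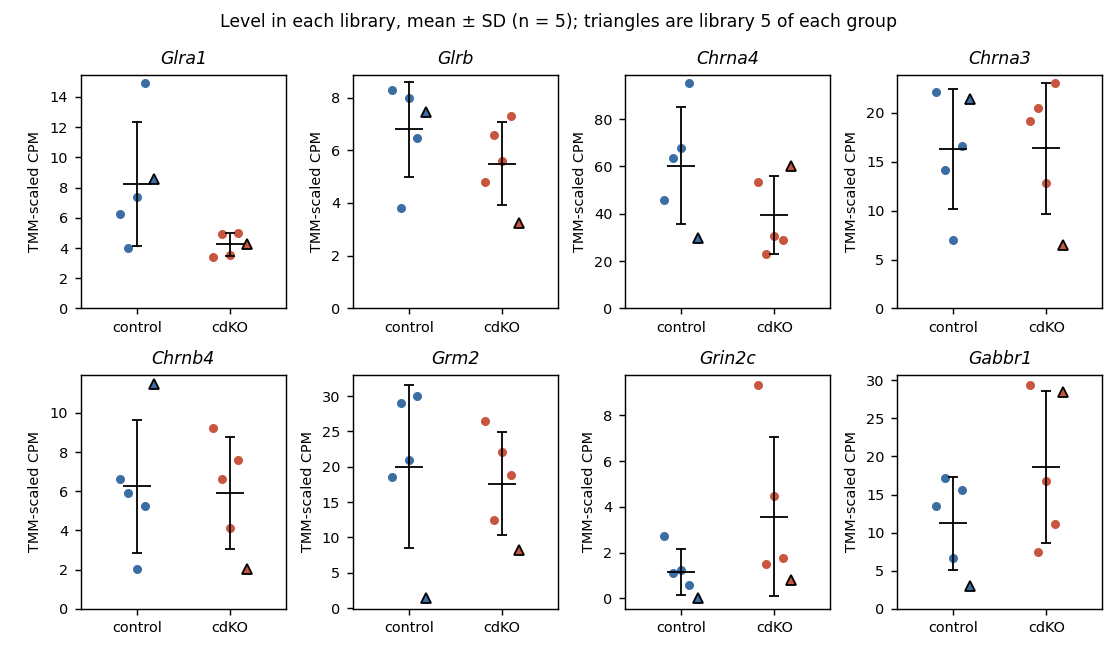
TMM-scaled CPM of 8 members in each of the 5 control and 5 cdKO libraries (dots, with triangles for library 5 of each group) with the mean ± SD in black. Glra1 shows 4 controls above all cdKO samples, whereas the other genes overlap more widely and Grm2 has a single low control at 1.42 CPM.

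GABA-A receptors of mature synapses usually combine alpha, beta and gamma subunits. The level of Gabrg1 was 3.20, 1.04, 3.71, 3.81 and 4.55 CPM in controls 1 to 5 and 1.55, 5.15, 2.45, 3.77 and 1.14 CPM in cdKO samples 1 to 5. The groups overlapped, and the log2 fold change was -0.21 ± 0.48 (SE), or 0.12 ± 0.46 (SE) without both sparse libraries.

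The GABA-A genes with the lowest fitted changes were Gabra2, Gabrb2 and Gabra5. Gabrb2 stood at 1.32, 0.949, 1.05, 2.16 and 0.960 CPM in controls 1 to 5 and 1.02, 0.405, 0.479, 1.18 and 0.689 CPM in cdKO samples 1 to 5. Every cdKO value lay below the control mean, although the groups overlapped, and the fit gave -0.77 ± 0.44 (SE) with an unadjusted p of 0.104. Gabra2 measured 0.351, 0.201, 0.239, 0.0814 and 0.251 CPM in controls 1 to 5 and 0, 0, 0.135, 0.107 and 0.335 CPM in cdKO samples 1 to 5. cdKO samples 1 and 2 had no count, and the fit gave -1.004 ± 0.94 (SE) with an unadjusted p of 0.306. It moved to -1.84 ± 0.98 (SE, unadjusted p of 0.0874) without both sparse libraries and to -1.87 (unadjusted p of 0.0742) without cdKO 5 alone. In limma-voom it was -2.28, with an unadjusted p of 0.0463. Without cdKO 1 it was -0.68 and without cdKO 2 -0.67. For Gabra5, the values were 0.261, 0.307, 0.114, 0.434 and 0.236 CPM in controls 1 to 5 and 0.317, 0.190, 0.283, 0.143 and 0 CPM in cdKO samples 1 to 5. This alpha5 subunit gave -0.51 ± 0.72 (SE), or -0.26 ± 0.50 (SE) without both sparse libraries, with 27.1% of its counts on bins shared with Gm9962. Gabra3 ran from 0.118 to 2.31 CPM in controls and from 0.333 to 2.41 CPM in cdKO samples, and Gabra4 from 0 to 1.16 CPM and from 0.307 to 1.91 CPM. Gabrb1, Gabrg3 and Gabra6 did not pass the filter.

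The GABA-B receptor works as a pair of Gabbr1, which binds GABA, and Gabbr2, which couples to G proteins. Gabbr1 had 13.5, 17.2, 6.73, 15.6 and 2.98 CPM in controls 1 to 5 and 29.4, 7.46, 16.7, 11.2 and 28.4 CPM in cdKO samples 1 to 5. The 2 highest libraries were cdKO 1 and cdKO 5, and the others interleaved. The level of Gabbr2 was 1.09, 0.479, 0.227, 0.271 and 0.0296 CPM in controls 1 to 5 and 0.241, 0.119, 0.442, 0.274 and 0.670 CPM in cdKO samples 1 to 5. The log2 fold changes were 0.73 ± 0.49 (SE) for Gabbr1, or 0.28 ± 0.43 (SE) without both sparse libraries, and -0.28 ± 0.74 (SE) for Gabbr2, or -0.96 ± 0.60 (SE). Per length, Gabbr1 stood at 1.04 CPM per kb and Gabbr2 at 0.037 CPM per kb.

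Of the glutamate receptors, the metabotropic gene Grm2 had the highest level. Grm2 stood at 18.6, 29.0, 20.9, 30.04 and 1.42 CPM in controls 1 to 5 and 26.4, 12.4, 22.1, 18.9 and 8.21 CPM in cdKO samples 1 to 5. The 4 other controls spanned 18.6 to 30.04 CPM, within which 3 cdKO samples also lay, and the fit gave -0.18 ± 0.58 (SE), or -0.31 ± 0.28 (SE) without both sparse libraries. Grm4 measured 7.59, 11.3, 5.49, 5.91 and 1.12 CPM in controls 1 to 5 and 9.84, 3.99, 8.58, 7.81 and 2.62 CPM in cdKO samples 1 to 5. Control 5 was again the lowest library, and the fit gave 0.065 ± 0.52 (SE), or -0.011 ± 0.34 (SE) without both sparse libraries. Grm2 and Grm4 both code for receptors that lower cyclic AMP and often sit on presynaptic terminals. For Grm3, the values were 0.151, 0.115, 0.227, 0.136 and 0.0148 CPM in controls 1 to 5 and 0.0254, 0.452, 0.0246, 0.405 and 0.394 CPM in cdKO samples 1 to 5. This group II receptor gene was at 0.452 CPM or less everywhere and gave 0.99 ± 0.84 (SE), or 0.52 ± 0.85 (SE) without both sparse libraries.

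Grm8 did not pass the filter and is named after its values were seen. Grm8 had 0.632, 0.249, 0.0682, 0.203 and 0.177 CPM in controls 1 to 5 and 0.102, 0, 0.0492, 0.0358 and 0 CPM in cdKO samples 1 to 5. Of the controls, all but control 3 lay above every cdKO sample, and the exact two-sided permutation p was 0.0159. DESeq2, which kept this gene, gave a log2 fold change of -2.80 ± 0.93 (SE) with an unadjusted p of 0.00254 and an adjusted p of 0.473. In that fit 1.55% of 30166 genes were lower in cdKO at an unadjusted p under 0.05. Since Grm8 was picked by these values, its p-values carry no independent weight. The highest count of Grm8 in a library was 63. Grm5, Grm6 and Grm7 did not pass the filter, and the highest CPM among them was 2.36 for Grm5 in cdKO 5.

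AMPA receptor genes were led by Gria4 and Gria2, of which the latter codes for the subunit that makes the channel tight to calcium. The level of Gria4 was 9.00, 1.496, 2.79, 4.41 and 0.606 CPM in controls 1 to 5 and 2.87, 2.65, 5.19, 4.78 and 5.63 CPM in cdKO samples 1 to 5. Gria2 stood at 8.88, 1.601, 3.13, 9.45 and 2.48 CPM in controls 1 to 5 and 2.55, 2.00, 3.69, 8.52 and 7.38 CPM in cdKO samples 1 to 5. Control 1 and control 4 were the highest controls for both genes. The lowest control was control 5 for Gria4 and control 2 for Gria2, and the cdKO samples fell within the control range of each gene. Gria1 measured 1.42, 0.470, 0.682, 1.04 and 0 CPM in controls 1 to 5 and 0.762, 0.214, 0.455, 0.870 and 1.22 CPM in cdKO samples 1 to 5. Control 5 had no count of Gria1, nor of Gria3, which otherwise ran from 0.421 to 1.49 CPM in controls and from 0.319 to 1.38 CPM in cdKO samples. The log2 fold changes were 0.21 ± 0.57 (SE) for Gria4, -0.082 ± 0.56 (SE) for Gria2, -0.043 ± 0.82 (SE) for Gria1 and -0.33 ± 0.85 (SE) for Gria3. Without both sparse libraries they were -0.21 ± 0.50 (SE), -0.47 ± 0.61 (SE), -0.66 ± 0.50 (SE) and -1.25 ± 0.46 (SE), in the same order. The last had an unadjusted p of 0.0215 and an adjusted p of 0.9998. However, Gria3 turned to 0.45 in limma-voom and to 0.12 without control 1.

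Kainate receptors pair low-affinity (Grik1, Grik2 and Grik3) with high-affinity subunits (Grik4 and Grik5). For Grik5, the values were 8.24, 6.10, 9.72, 9.17 and 10.03 CPM in controls 1 to 5 and 11.9, 6.28, 9.68, 5.72 and 12.03 CPM in cdKO samples 1 to 5. Both groups spanned similar ranges, and its log2 fold change of 0.078 ± 0.31 (SE) had the smallest standard error of the 38 tested members, with 0.0079 ± 0.29 (SE) without both sparse libraries. Grik2 had 3.01, 1.68, 2.02, 3.25 and 0.842 CPM in controls 1 to 5 and 2.171, 1.49, 2.03, 3.52 and 0.709 CPM in cdKO samples 1 to 5. The level of Grik4 was 3.55, 2.71, 1.02, 1.27 and 0.517 CPM in controls 1 to 5 and 5.30, 2.03, 2.37, 1.78 and 1.48 CPM in cdKO samples 1 to 5. cdKO 1 was the highest library for Grik4, while the groups overlapped for Grik2. The log2 fold changes were -0.12 ± 0.47 (SE) for Grik2 and 0.51 ± 0.54 (SE) for Grik4. Grik1 ran from 0.103 to 1.17 CPM in controls and from 0.256 to 1.66 CPM in cdKO samples. Grik3 ran from 0.532 to 1.27 CPM and from 0.432 to 3.60 CPM, and 182 of the 183 counts of its highest library, cdKO 5, lay on its last exon bin.

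NMDA receptors need the Grin1 subunit together with Grin2 or Grin3 subunits. Grin2c stood at 2.73, 1.10, 1.25, 0.610 and 0.0148 CPM in controls 1 to 5 and 9.31, 1.52, 4.497, 1.75 and 0.827 CPM in cdKO samples 1 to 5. cdKO 1 and cdKO 3 exceeded every control, and the 3 other cdKO samples lay within the control range. The means were 1.14 ± 1.01 CPM in controls and 3.58 ± 3.49 CPM in cdKO samples (SD, n = 5 each), and the log2 fold change was 1.64 ± 0.86 (SE) with an unadjusted p of 0.0784 and an adjusted p of 0.939. Without both sparse libraries it was 1.57 ± 0.63 (SE), with an unadjusted p of 0.0316, and without cdKO 1 alone it was 0.91. Grin3b measured 1.43, 0.796, 0.944, 0.732 and 1.30 CPM in controls 1 to 5 and 0.965, 0.738, 1.03, 0.799 and 6.24 CPM in cdKO samples 1 to 5. Only cdKO 5 stood apart, 93.9% of all Grin3b counts lay on bins shared with Tmem259, and on the 5 bins of Grin3b alone no library had more than 22 counts. Its fitted log2 fold change of 0.90 ± 0.61 (SE) was -0.15 ± 0.32 (SE) without both sparse libraries. For Grin2d, the values were 1.51, 2.21, 0.716, 0.664 and 0.680 CPM in controls 1 to 5 and 1.87, 0.857, 1.19, 1.45 and 1.69 CPM in cdKO samples 1 to 5. This gene gave 0.29 ± 0.45 (SE), or 0.066 ± 0.44 (SE) without both sparse libraries, with 45.0% of its counts on bins shared with Gm45441. Grin1 itself ran from 0.532 to 2.44 CPM in controls and from 0.393 to 2.74 CPM in cdKO samples, with 67.6% of its counts shared with its antisense gene Grin1os. Per length, Grin1 (0.066 CPM per kb) stood below Grin2c (0.312) and Grin2d (0.135). Grin2a ran from 0.278 to 1.82 CPM and from 0.344 to 2.07 CPM, and Grin2b and Grin3a did not pass the filter.

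Genes that work with these receptors were examined as 7 lists of 61 genes (auxiliary subunits, scaffolds, chaperones and receptor subunits outside the name rule). Of these, 53 passed the filter, 31 with higher and 22 with lower fitted values in cdKO, at a median log2 fold change of 0.17. None had an adjusted p under 0.05, and at an unadjusted p under 0.05 there were 4 higher (4.18% of all genes) and 0 lower (0.818% of all genes). Kctd8, an auxiliary subunit of GABA-B receptors, had 0.853, 0.556, 0.375, 0.353 and 0.103 CPM in controls 1 to 5 and 1.65, 0.690, 0.983, 1.37 and 1.595 CPM in cdKO samples 1 to 5. All but 1 of the cdKO samples exceeded every control, and the log2 fold change was 1.48 ± 0.53 (SE), although 47.3% of its counts lay on bins shared with another gene. Tmem35a, a chaperone for alpha7 nicotinic receptors, had 10.4, 8.34, 4.51, 6.14 and 3.18 CPM in controls 1 to 5 and 14.8, 7.85, 11.2, 8.91 and 15.6 CPM in cdKO samples 1 to 5. Its log2 fold change was 0.84 ± 0.37 (SE), with the 3 highest libraries all cdKO. Gabarap, which traffics GABA-A receptors and also serves autophagy, stood at 231 ± 96.6 CPM in controls and 481 ± 367 CPM in cdKO samples (SD, n = 5 each), and cdKO 5 alone reached 1111 CPM. Shank1, a scaffold of excitatory synapses, reached 12.01 CPM in cdKO 5 and at most 1.40 CPM elsewhere, with 93.4% of its counts on bins shared with another gene. Without both sparse libraries the log2 fold changes of these genes were 1.12 ± 0.41 (SE) for Kctd8, 0.53 ± 0.32 (SE) for Tmem35a, 0.32 ± 0.31 (SE) for Gabarap and 0.35 ± 0.43 (SE) for Shank1, of which only the first kept an unadjusted p under 0.05 (0.0212). Homer2, a scaffold gene named after its values were seen, had an unadjusted p of 0.103 in edgeR's test. Its controls lay at 8.95 to 12.8 CPM and its cdKO samples, all lower, at 7.32 to 8.61 CPM. Such separation with cdKO lower was found in 0.224% of all genes. Of the Homer2 counts, 45.5% lay on bins shared with another gene.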

How the data were processed

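RNA-seq was measured on YFP-positive spinal cord cells in 5 control and 5 cdKO samples. Per the labels, the authors made paired reads of 150 bases, and the submitters' processing notes name bcl2fastq 2.17, Trimmomatic 0.36, STAR 2.5.2b, Subread 1.5.2, DESeq2 and GRCm38. The authors deposited raw counts per exon bin in 1 file per sample (425461 bins). Reads add to each bin they touch, so a gene's sum exceeds its number of reads.

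Bins were given to GENCODE M21 genes that contain them, and a bin of several genes to its only protein-coding one. The 3996 bins left out held 1.19% of the counts. Gene sums were scaled by TMM and filtered (filterByExpr, minimum count 10), and tested with edgeR 4.0.16 (quasi-likelihood test, group only, Benjamini-Hochberg adjustment, threshold 0.05) on 5 against 5 samples. The SE is the size of the log2 fold change divided by the square root of F. Exact two-sided permutation tests used log2(CPM + 0.5). DESeq2 1.42.0, limma 3.58.1 (voom) and other settings served as alternatives. The edgeR test was also run on counts simulated from the means and spread of these data, and the outcome is not given here. The limit given for a count of 0 covers counting error only, whereas the SD and SE include the spread between samples.

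Members and lists were chosen with earlier results of these data known. Values in every sample are given for the 3 members of each class with the highest level per length, those with an unadjusted p under 0.05 or without overlap, and the 5 largest positive and 5 largest negative changes. Of the auxiliary genes, those with an unadjusted p under 0.05 are named, and Homer2 was added after its values were seen. Some members and markers are not reported here by name, although counts, medians and class sums include them. RefSeq promoter sequences were not used here.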

Additional observations from a re-analysis of the deposited data

Results flagged for a closer look

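In each group of 5 libraries, the highest and the lowest CPM of the 25 tested and named members were compared with the rest by Dixon's ratio (gap to the nearest sample over the range, critical value 0.71). Of 50 groups, 3 exceeded it, where chance gives about 1 in 20. This rate does not strictly hold here. Some members, Chrnb1 among them, were named for large fold changes in these same values. Chrnb1 was at 2.36 CPM in cdKO 5, against 0 to 0.147 CPM in the other cdKO samples. Grin3b was at 6.24 CPM in cdKO 5, against 0.738 to 1.03 CPM. Grik4 was at 5.30 CPM in cdKO 1, against 1.48 to 2.37 CPM. cdKO 5 is 1 of the sparse libraries described above, and 93.9% of the Grin3b counts are shared with Tmem259. What moved these single values was not tested.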

How the results depend on the processing

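No member had an adjusted p under 0.05 under any alternative run. Genes called over all genes numbered 0 in the edgeR fit, 1 with library size only, 20 with DESeq2, 3 with limma-voom, 1 with no filter, 4 without both sparse libraries, and 0 to 4 when a single library was left out. In the edgeR fit, 891 genes had an unadjusted p under 0.05. Members with an unadjusted p under 0.05 and a higher value numbered 0 in the edgeR fit, 1 with DESeq2, 2 with the single highest bin, 1 without both sparse libraries and 0 to 1 when a single library was left out. Those with a lower value numbered 1 in the edgeR fit, 2 with library size only, DESeq2 or limma-voom, 3 with no filter, 4 without both sparse libraries and 0 to 3 when a single library was left out. The 0 arose without control 4, and the 3 without cdKO 5. The median log2 fold change of members was -0.17 without both sparse libraries and -0.09 to 0.22 when a single library was left out. With library size only it was -0.10, where the median of all genes was -0.15. Of the 10 highest members per length, 9 were shared with plain bin lengths and 10 with bins of the gene alone. The cause of these differences was not tested.

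The correlations of same-numbered deviations from the group means were 0.094, -0.32, 0.17, 0.43 and 0.36 for replicates 1 to 5. Samples of different numbers were not compared in this way, so these values cannot show whether replicate numbers pair the samples. With the replicate number as a block, 0 genes were called, and 1 member was higher (Grin2c) and 1 lower (Glra1) at an unadjusted p under 0.05. The block reversed the fitted log2 fold changes of Chrnb1 (-1.68), Chrnb4 (0.033), Gria1 (0.021), Gria2 (0.052) and Grm2 (0.18).

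Of the 25 tested and named members, 12 kept their direction in every alternative and 13 did not. Direction turned with library size only for Chrna3 (-0.069), Grik5 (-0.11) and Grm4 (-0.030), and with limma-voom for Chrnb1 (-0.85), Gabbr2 (0.044), Gria1 (0.71), Gria2 (0.025) and Grm2 (0.23). With the single highest bin it turned for Chrna3 (-0.081), Chrnb4 (0.046) and Gria4 (-0.038). Without both sparse libraries, an alternative added after the data were seen, it turned for Chrnb1 (-2.52), Chrnb4 (0.47), Gabrg1 (0.12), Gria4 (-0.21), Grin3b (-0.15) and Grm4 (-0.011). Leaving out a single library turned Chrna3 (-0.18 to 0.22), Chrnb1 (-2.20 to 1.57), Chrnb4 (-0.30 to 0.26), Gabbr2 (-0.66 to 0.45), Gria1 (-0.37 to 0.35), Gria2 (-0.43 to 0.24), Gria4 (-0.070 to 0.86), Grik2 (-0.47 to 0.084), Grik5 (-0.041 to 0.18), Grin3b (-0.23 to 1.11) and Grm4 (-0.20 to 0.38). Of the other members given with a fold change, Chrna7 kept its direction. Chrnb2 turned with library size only (-0.024), on bins of the gene alone (-0.12), without both sparse libraries (-0.19) and without cdKO 5 (-0.012). Chrng turned without cdKO 3 (-0.20) or cdKO 4 (-0.044), and Gria3 with limma-voom (0.45) and without control 1 (0.12). Glra1 kept a negative value throughout, and its unadjusted p passed 0.05 in all of them except without control 4. The choice of flip or flop exons could not be tested under either minimum, since at most 2 samples met it.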
